A study of Mus musculus with 2 samples.

Results

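Chemokine and chemokine receptor genes were followed through 2 spatial RNA libraries of the mouse calvaria, the bony vault of the skull. The set held every gene whose symbol is Ccl, Cxcl, Ccr or Cxcr followed by a digit, together with Ppbp, Pf4, Cx3cl1, Cx3cr1, Xcl1, Xcr1 and the atypical receptors Ackr1 to Ackr4. This rule took 68 of the 31053 gene IDs in the files, under 63 symbols, of which 46 IDs were ligands and 22 were receptors. The rule itself uses names and no measured value.

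Both sections came from calvarial bone defects of mice harvested at day 7 and were fresh frozen. The defect of the Col_nHA section received collagen/nHA material, and that of the Blank section did not. With 1 library per group the differences below have no replicate check, and no p-values are given. The strain, age and sex of the mice, and whether animals were pooled, are not given in the sources used here. Barcodes past a threshold of unique molecular identifiers (UMIs), fixed by section, counted as spots over tissue. They were 45.1% of barcodes in Blank, 2249 spots with a median of 9733 UMIs, and 49.5% in Col_nHA, 2471 spots with a median of 13815 UMIs. Barcodes below the threshold had medians of 1248 and 1760 UMIs. All 4992 barcodes were common to both files, as the array lists the same barcodes for each section. Bone markers were present in both sections. Levels are in CPM, the UMIs of a gene or list per 1e+06 UMIs of all genes. The osteoblast list stood at 32532 CPM in Blank and 21720 in Col_nHA, most of it from Col1a1, at 31502.5 and 21096 CPM. Bglap stood at 578 and 233 CPM and Ibsp at 88.2 and 174 CPM. Sp7, Alpl and Runx2 had ratios of Col_nHA over Blank of 1.04, 0.988 and 0.952. The list sum is therefore not read as a direction of bone. Transcripts of other tissues were also present, so the labelled tissue is not the only one in the sections. The skeletal muscle list stood at 5715 CPM in Blank and 13462 in Col_nHA, the choroid plexus list at 12121 and 141, and the skin list at 2241 and 1630. Results are therefore also given for trimmed sections, which lack the spots with over 2% of UMIs in the skin, muscle, fat, nerve, brain and choroid plexus lists, 27.2% of spots in Blank and 13.8% in Col_nHA.

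Chemokines are small secreted proteins that set up gradients along which leukocytes move. They act on receptors of the G protein-coupled family on the responding cell, and one receptor usually binds several ligands. CXC ligands with an ELR motif act on Cxcr2 and draw neutrophils, the monocyte chemoattractant proteins act on Ccr2, and the macrophage inflammatory proteins act on Ccr1 and related receptors. Atypical receptors bind chemokines without G protein signalling and take them up or carry them across cells. In a healing bone defect, chemokines recruit neutrophils, monocytes and the precursors of bone-resorbing osteoclasts.

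The members together held 68132 UMIs in Blank, or 2219 CPM, and 102467 in Col_nHA, or 2549 CPM. Of the 68 IDs, 57 had at least 1 UMI and 30 reached 10 CPM in Blank, in Col_nHA or in both. Ratios below are Col_nHA over Blank, with an exact 95% interval that covers counting error only. Of these, 4 of the 30 were at least 2-fold higher in Col_nHA: Cxcl5, Ccr1, Ccl2 and Ccl3. Among all 9855 genes at 10 CPM the share at least 2-fold higher was 1.83%. Another 2 of the 30, Ccl21a and Ccl27a, were at least 2-fold lower, against 3.4% of all genes. The median log2 ratio of the 30 was 0.41, and that of all genes was 0.02. At 1.5-fold, 8 of the 30 were higher and 4 lower, against 5.13% and 7.07% of all genes. The set was split, with 18 ratios above 1 and 12 below it, against 5137 and 4718 of all 9855 genes. The interval lay above 1 for 17 of the 30 and below 1 for 11, against 3497 and 3042 of all genes. CPM here are not scaled by transcript length, so levels are compared within a gene, between sections and regions, and not between genes. In a spot, which can hold several cells, fewer cells of a type and less RNA per cell cannot be told apart.

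**Figure D1:**
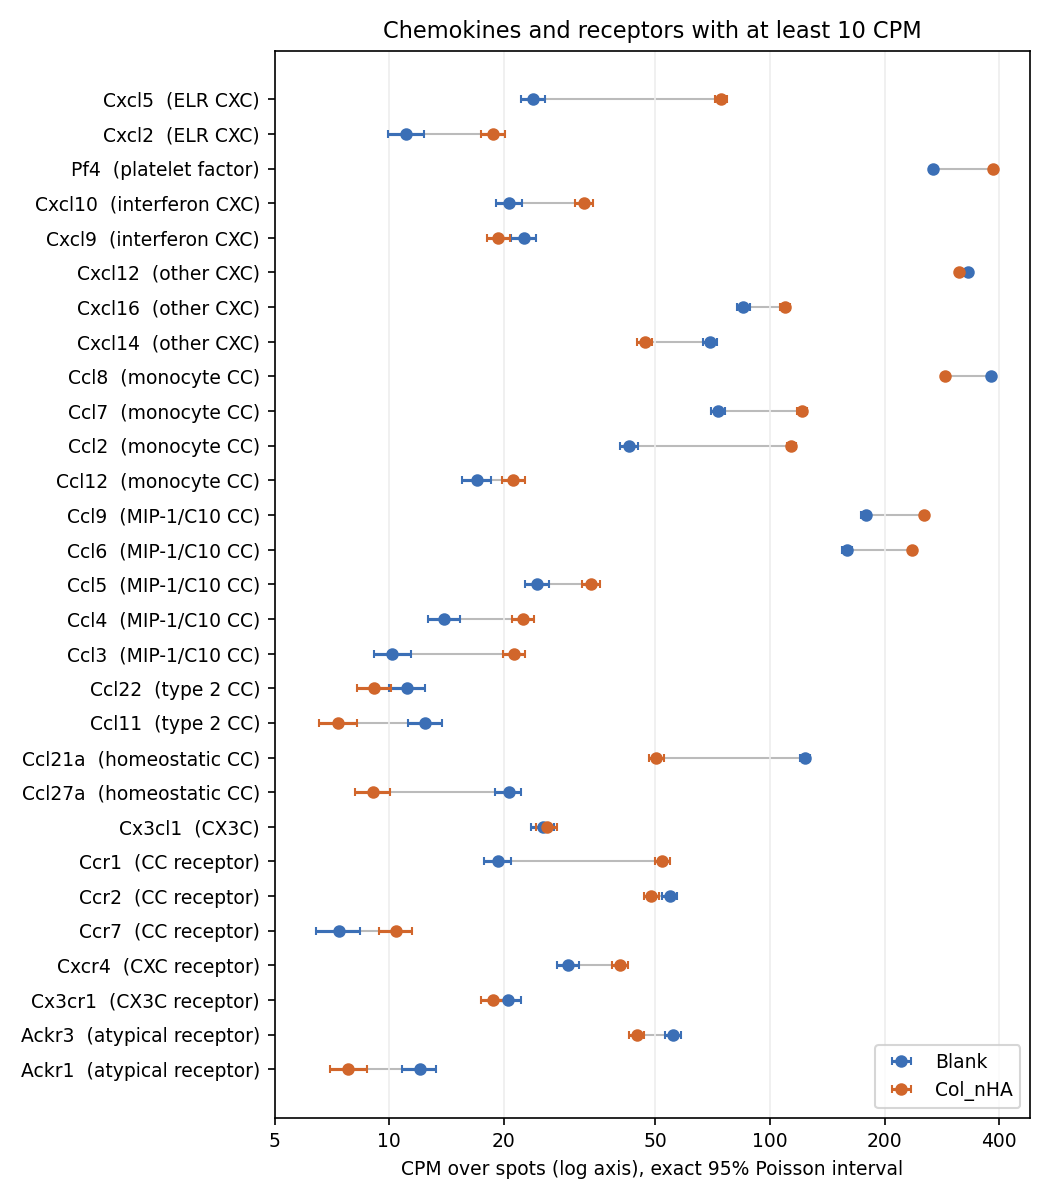
CPM of 29 of the 30 members that reached 10 CPM, on a log axis, with 1 point for the Blank section and 1 for the Col_nHA section of each gene and bars for the exact Poisson 95% interval. Cxcl5, Ccr1, Ccl2 and Ccl3 lie furthest apart with Col_nHA higher, and Ccl21a and Ccl27a with Blank higher.

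To see where in each section the transcripts lay, spots of both sections were clustered on all other genes, with the members left out, which gave 14 numbered regions. A region is a group of spots with a like profile and is described only by its leading genes. No spot coordinates or image were used. Region 3, led by Cfd, Myh3 and Myog, had the highest summed member level in Blank among regions with at least 50 spots of the section, at 4068 CPM. It held 34.0% of the members' Blank UMIs on 20.4% of the spots. Region 14, led by Ly6c2, Ms4a4c, Chil3 and Rsad2, had the highest in Col_nHA by the same measure, at 4681 CPM, with 10.1% of the members' UMIs on 5.50% of the spots. Region 9, led by Myh4, had the lowest in Col_nHA at 684 CPM, and region 12, led by Ttr, the lowest in Blank at 834 CPM. Most regions belonged largely to 1 section, and regions 2, 6 and 13 alone held at least 50 spots of both. Region 6, led by Npy, Spp1, Mmp12 and Gpnmb, did so with 52 Blank and 307 Col_nHA spots, so its Blank values rest on few spots.

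**Figure D2:**
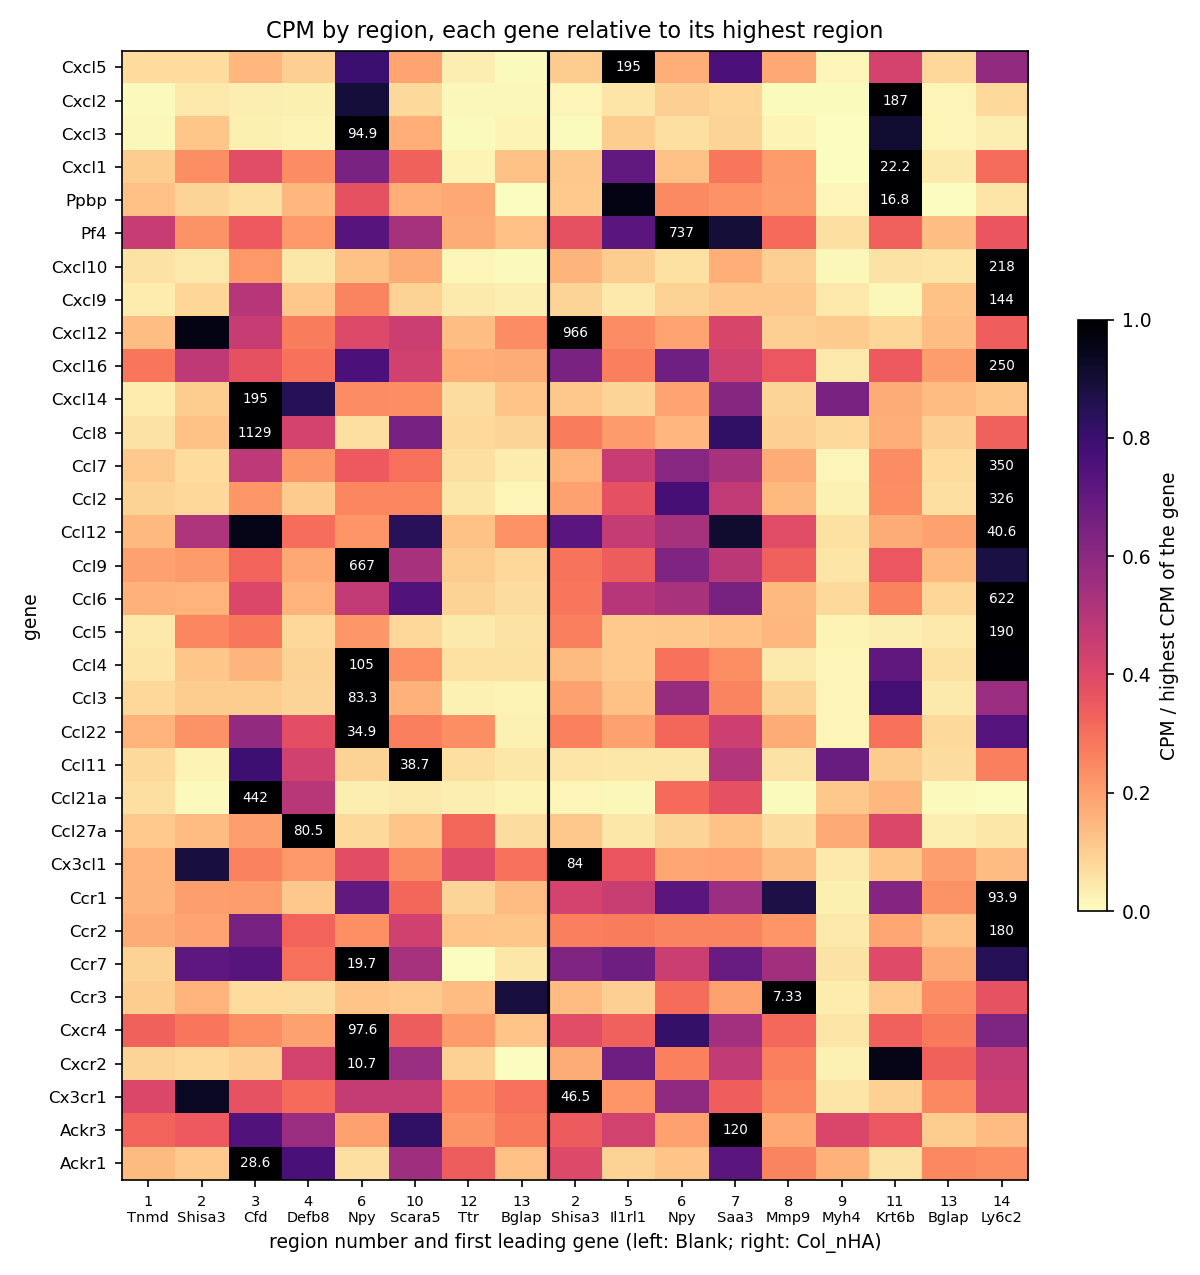
Level of 29 of the 30 members that reached 10 CPM (rows) in each region with at least 50 spots of a section (columns, Blank and Col_nHA apart), coloured by CPM as a share of the gene's highest CPM, which is printed in its cell. Cxcl3, Cxcl1, Ppbp, Cxcr2 and Ccr3, which were below 10 CPM, are added, and the Col_nHA column of region 14 holds the highest cell of Ccl2, Ccl7, Ccr2, Cxcl9 and Cxcl10.

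Among the ligands of the neutrophil receptor, 2 were above 10 CPM. Cxcl5 stood at 23.9 CPM in Blank (734 UMIs) and 74.5 CPM in Col_nHA (2996 UMIs), a ratio of 3.12 (2.87 to 3.38), the highest of the 30. Cxcl2 stood at 11.1 and 18.8 CPM, a ratio of 1.70 (1.49 to 1.93). Both were highest in region 6 in Blank, while in Col_nHA their highest regions differed. Cxcl2 was highest in Blank in region 6, at 167 CPM with 54.7% of its UMIs, and in Col_nHA in region 11, at 187 CPM with 60.1% of its UMIs. Region 11 is led by Krt6b and Sprr2a3, which are genes of stressed or wounded epidermis, and held 184 Col_nHA spots and no Blank spot. Cxcl3 had the same 2 regions on top, at 94.9 CPM in region 6 of Blank and 86.3 CPM in region 11 of Col_nHA. Cxcl5 in Col_nHA was highest in region 5, led by Il1rl1, Cnn1 and Actg2, at 195 CPM with 44.1% of its UMIs, then in region 7, led by Saa3, at 149 CPM. In Blank, Cxcl5 was highest in region 6, at 156 CPM. The Cxcl2 ratio in the trimmed sections was 0.942 (0.814 to 1.09), so its direction rests on the spots removed, while that of Cxcl5 was 3.09.

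The promoters of Cxcl2 and Cxcl3 are shown because those genes peaked in the same regions of both sections, and those of Cxcl9 and Cxcl10, described further on, because they shared their highest regions too. Each sequence is the 250 bases before the gene start in RefSeq on GRCm38.p6, written in the direction of transcription, and capitals mark matches to the NF-kappaB site motif, named kappaB, or to the interferon-stimulated response element, spelled GAAANNGAAA here. Both strands were searched, and no kappaB match overlapped a match to the response element.
Cxcl2, chr5:90903649-90903898, plus strand: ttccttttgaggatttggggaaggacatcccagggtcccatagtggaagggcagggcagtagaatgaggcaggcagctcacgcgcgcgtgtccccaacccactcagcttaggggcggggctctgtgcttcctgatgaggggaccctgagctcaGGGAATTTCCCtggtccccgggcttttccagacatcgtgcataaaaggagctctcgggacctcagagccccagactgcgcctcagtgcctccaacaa
Cxcl3, chr5:90785851-90786100, plus strand: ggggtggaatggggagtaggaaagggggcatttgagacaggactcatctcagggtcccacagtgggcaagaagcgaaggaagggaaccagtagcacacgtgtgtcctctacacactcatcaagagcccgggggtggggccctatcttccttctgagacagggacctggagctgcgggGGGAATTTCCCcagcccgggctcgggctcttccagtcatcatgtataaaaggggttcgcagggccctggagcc
Cxcl9, chr5:92328080-92328329, minus strand: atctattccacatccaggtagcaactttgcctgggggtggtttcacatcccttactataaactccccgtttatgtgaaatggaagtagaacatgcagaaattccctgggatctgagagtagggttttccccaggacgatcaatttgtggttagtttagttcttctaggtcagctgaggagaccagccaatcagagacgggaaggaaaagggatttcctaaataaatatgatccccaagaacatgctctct
Cxcl10, chr5:92348890-92349139, minus strand: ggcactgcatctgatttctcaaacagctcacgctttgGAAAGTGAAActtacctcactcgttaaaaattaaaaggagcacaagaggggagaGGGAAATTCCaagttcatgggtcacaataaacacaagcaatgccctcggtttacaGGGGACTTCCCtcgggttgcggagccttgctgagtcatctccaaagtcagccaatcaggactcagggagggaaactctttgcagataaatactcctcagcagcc
Cxcl2 and Cxcl3 hold the same capitals, GGGAATTTCCC, which match on both strands. In Cxcl2 they lie 97 to 87 bases before the start, and in Cxcl3 73 to 63 bases before it. Cxcl10 holds a response element match, GAAAGTGAAA, and the kappaB matches GGGAAATTCC and GGGGACTTCCC, while the Cxcl9 window holds neither motif. A match is a string of letters and not a shown binding site, and its absence says only that these letters are not in the window. The RefSeq table held 54 promoters of 47 member symbols. In windows of 300 bases, which also take in the 50 bases after the start, kappaB was matched in 12 of the 54 and in 8.46% of all 32851 promoters. The response element was matched in 3 of the 54 and in 3.44% of all, the AP-1 motif TGANTCA in 10 and in 7.81%, and TATAAA, on the coding strand alone, in 13 and in 8.32%.

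The other ELR ligands were below 10 CPM. Cxcl3 had 228 UMIs in Blank and 370 in Col_nHA, a ratio of 1.24 (1.05 to 1.47), and Cxcl1 had 152 and 267, a ratio of 1.34 (1.10 to 1.65). Ppbp, stored in platelets and their precursors, had 64 and 231 UMIs, a ratio of 2.76 (2.08 to 3.70). Cxcl15 had no UMI in either section. Over whole sections all ELR ligands with UMIs thus had a ratio above 1, as had 5137 of all 9855 genes at 10 CPM. Their summed level went from 49.4 CPM in Blank to 115 CPM in Col_nHA, with Cxcl5 at 23.9 and 74.5 CPM. Within region 6 (52 Blank spots) Cxcl1, Cxcl2, Cxcl3 and Cxcl5 had ratios of 0.197, 0.110, 0.0654 and 0.211, with intervals below 1. Ppbp stood at 0.661, with an interval that held 1. In region 2 Cxcl2 and Cxcl3 stood at 0.396 and 0.0604, with intervals below 1, and Cxcl1 at 0.478, whose interval held 1. Cxcl5 and Ppbp stood at 1.45 and 1.26 there. Pf4, the other platelet chemokine, stood at 269 and 386 CPM, a ratio of 1.44 (1.40 to 1.48). Pf4 was highest in Col_nHA in region 6 at 737 CPM and in Blank in region 6 at 541 CPM, which are spots rich in macrophage transcripts at 1.82% and 1.26% of UMIs. The platelet and megakaryocyte list was near its floor, between 0.001% and 0.017% of UMIs over the regions, with Gp6 and Tubb1 at 0 in both sections. Summed, that list stood at 48.5 CPM in Blank and 83.7 in Col_nHA, but the higher sum came from the integrin gene Itgb3, at 37.0 and 74.3 CPM. The other genes of the list were split and all below 10 CPM. Itga2b, which defines megakaryocytes and platelets, stood at 8.53 and 5.70 CPM, a ratio of 0.668 (0.557 to 0.800). Treml1, with 12 and 33 UMIs, had a ratio of 2.10 (1.06 to 4.47). The intervals of Gp1bb at 0.924, Clec1b at 1.78 and Gp9 at 1.91 held 1. The list's part in the ratios of Ppbp and Pf4 was not tested. Ppbp was highest in Col_nHA in regions 11 and 5, at 16.8 and 16.3 CPM, and not in region 6.

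The interferon-induced ligands Cxcl9 and Cxcl10, which act on Cxcr3 of T and NK cells, went different ways over whole sections. Cxcl9 stood at 22.5 CPM in Blank and 19.4 in Col_nHA, a ratio of 0.859 (0.774 to 0.953). Cxcl10 stood at 20.6 and 32.6 CPM, a ratio of 1.58 (1.44 to 1.74). Their places were the same. In Blank, region 3 was highest for both, with Cxcl9 at 71.9 CPM and Cxcl10 at 46.8 CPM, and held 59.1% and 42.0% of their UMIs. In Col_nHA, region 14 was highest for both, with 144 and 218 CPM and 41.0% and 36.9% of their UMIs. Rsad2, an interferon-induced gene, is among the genes that lead region 14. In the trimmed sections the Cxcl9 ratio was 1.02 and that of Cxcl10 1.77, so no direction is given for Cxcl9.

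Of the other CXC ligands, Cxcl12, which binds Cxcr4 and Ackr3 and holds blood stem cells and leukocytes in marrow and stroma, was at nearly the same level in both sections. It stood at 331 CPM in Blank and 315 in Col_nHA, a ratio of 0.95 (0.926 to 0.976), and at 1.01 in the trimmed sections. Region 2, led by Shisa3, Cldn11 and Penk, was highest for it in both sections, at 932 and 966 CPM. Cxcl16, a membrane-bound ligand of Cxcr6, stood at 85.2 and 109 CPM, a ratio of 1.28 (1.22 to 1.35), and was highest in region 6 of Blank, at 190 CPM, and in region 14 of Col_nHA, with 12.6% of its UMIs. Cxcl14, a ligand of skin and other epithelia, was lower in Col_nHA, at 69.5 and 46.9 CPM, a ratio of 0.676 (0.635 to 0.719). It was highest in region 3 of Blank, at 195 CPM, and in region 9 of Col_nHA, the Myh4 region, at 125.5 CPM. The CX3C ligand Cx3cl1 stood at 25.3 and 25.9 CPM, a ratio of 1.03 (0.934 to 1.13), with region 2 highest in both sections at 74.4 and 84.0 CPM. Within regions the pattern was not the same throughout. Cxcl12 had a ratio of 1.04 (0.992 to 1.08) in region 2 but of 0.471 (0.420 to 0.529) in region 6 and 0.560 (0.453 to 0.689) in region 13, and Cx3cl1 had 1.13 in region 2 and 0.479 (0.320 to 0.730) in region 6. The near-equal levels thus hold for whole sections and region 2.

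The 4 monocyte-attracting CC ligands did not move together. Ccl2, the main ligand of Ccr2, stood at 42.6 CPM in Blank (1307 UMIs) and 114 in Col_nHA (4580 UMIs), a ratio of 2.68 (2.52 to 2.85). Ccl7 stood at 73.0 and 121 CPM, a ratio of 1.66 (1.58 to 1.75), and Ccl12 at 17.0 and 21.2 CPM, a ratio of 1.2 (1.12 to 1.39). Ccl8, a ligand of tissue macrophages, went the other way, at 381 and 289 CPM, a ratio of 0.758 (0.738 to 0.777). The group total was 514 CPM in Blank and 545 in Col_nHA, which hides these opposite directions. Ccl8 lay in region 3 of Blank, at 1129 CPM with 54.9% of its UMIs, and in region 7 of Col_nHA, at 930 CPM with 33.0%. Its ratio in the trimmed sections was 0.979, so the lower Ccl8 of Col_nHA rests on the spots removed. Ccl2 stood at 2.90 in the same comparison.

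Ccl2 was highest in Col_nHA in region 14, at 326 CPM, and next in region 6, at 253 CPM with 29.3% of its UMIs. Ccl7 and Ccl12 were highest in the same region of Col_nHA, at 350.2 and 40.6 CPM, and in region 3 of Blank, at 169 and 38.8 CPM. In Blank the levels of Ccl2 were even over regions 10, 6 and 3, at 82.7, 82.4 and 70.7 CPM. Within the 3 regions with at least 50 spots of both sections the Ccl2 ratio was 2.49 (1.97 to 3.17) in region 2, 3.07 (2.48 to 3.83) in region 6 and 3.81 (1.52 to 11.4) in region 13, the last from 6 Blank and 24 Col_nHA UMIs. Ccl2 was therefore higher in Col_nHA in each of these regions, but the regions were not alike between the sections. The macrophage list took 0.573% of UMIs in Blank and 1.13% in Col_nHA in region 2. It took 1.26% and 1.82% in region 6, and 0.260% and 0.395% in region 13. The part of that list in the ratios within regions was not tested. Ccl7 was also above 1 in all 3, at 2.23, 1.74 and 1.97. Ccl8, lower over the whole section, was higher in Col_nHA in region 2 at 2.12 and in region 6 at 2.29. Cxcl5 gave no common ratio, at 1.45 in region 2, 0.211 in region 6 and 17.1 in region 13, the last from 1 and 18 UMIs with an interval of 2.71 to 714.

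The macrophage inflammatory and C10 family ligands were higher in Col_nHA over whole sections, but not in every region. Over whole sections the interval lay above 1 for 5 of 5, and for 3497 of all 9855 genes at 10 CPM. Ccl3, a ligand of Ccr1, stood at 10.2 CPM in Blank (313 UMIs) and 21.2 in Col_nHA (854 UMIs), a ratio of 2.08 (1.83 to 2.38). Its neighbour Ccl4 stood at 13.9 and 22.5 CPM, a ratio of 1.61 (1.43 to 1.81). The RefSeq annotations of Ccl3 and Ccl4 overlap, so reads may be split between them. Ccl5, made by T and NK cells and macrophages, stood at 24.5 and 34.0 CPM, a ratio of 1.39 (1.27 to 1.52). Ccl6 stood at 159 and 236 CPM, a ratio of 1.48 (1.43 to 1.53), and Ccl9, a ligand of Ccr1 made by macrophages and osteoclasts, at 179 and 255 CPM, a ratio of 1.43 (1.38 to 1.47). The macrophage and monocyte list, with 12 of 12 genes at 10 CPM, was also higher in Col_nHA, at 8826 CPM against 6550, a ratio of 1.35, and its part in these ratios was not tested. Ccl3 had a ratio of 1.83 in the trimmed sections and was then not past 2-fold.

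The place of these ligands differed between the sections. In Blank, region 6 was highest for Ccl3 at 83.3 CPM, for Ccl4 at 105 CPM and for Ccl9 at 667 CPM, while Ccl6 was highest in region 10 at 464 CPM and Ccl5 in region 3 at 53.8 CPM. In Col_nHA, region 11 was highest for Ccl3 at 64.9 CPM, and region 14 for Ccl4 at 104 CPM, for Ccl5 at 190 CPM, for Ccl6 at 622 CPM and for Ccl9 at 586 CPM. Region 14 also held the highest share of UMIs of the macrophage list, 1.85%, and of the T and NK cell list, 0.0147%. Within region 6, where Blank had 52 spots, 4 of the 5 were lower in Col_nHA. Ccl4 had a ratio of 0.295 (0.231 to 0.377) there, Ccl5 0.530 (0.374 to 0.763), Ccl3 0.572 (0.449 to 0.733) and Ccl9 0.633 (0.582 to 0.688), while Ccl6 stood at 1.12. In region 2 all 5 ratios were above 1, from 1.05 to 1.94, and the interval left out 1 for Ccl3, Ccl6 and Ccl9.

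Ligands of eosinophils and type 2 cells were low. Ccl11, the eotaxin ligand of Ccr3, stood at 12.4 CPM in Blank and 7.34 in Col_nHA, a ratio of 0.590 (0.505 to 0.688). Ccl22, a ligand of Ccr4 made by dendritic cells and macrophages, stood at 11.1 and 9.13 CPM, a ratio of 0.820 (0.705 to 0.952). Ccl24 and Ccl17, below 10 CPM, had ratios above 1. Ccl24, another eotaxin, had 219 and 362 UMIs, a ratio of 1.26 (1.07 to 1.5), and Ccl17 had 61 and 118 UMIs, a ratio of 1.48 (1.08 to 2.05). The 2 eotaxins thus went in opposite directions, as did the 2 ligands of Ccr4. Ccl11 was highest in region 10 of Blank, led by Scara5, C3 and Pi16, at 38.7 CPM, and in region 9 of Col_nHA, at 26.5 CPM. In the trimmed sections its ratio was 0.436 (0.361 to 0.525), past 2-fold. Ccl22 was highest in region 6 of Blank, at 34.9 CPM, and region 14 of Col_nHA, at 25.7 CPM.

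The homeostatic and skin CC ligands were the ligand group with the lowest ratio of sums, 0.418, at 151 CPM in Blank and 63.3 in Col_nHA, and only 2 of its 13 IDs reached 10 CPM. Ccl21a, the lymphatic vessel ligand of Ccr7, stood at 124 CPM in Blank (3799 UMIs) and 50.3 in Col_nHA (2023 UMIs), 2.46-fold lower (2.33 to 2.60). Ccl27a, a keratinocyte ligand of Ccr10, stood at 20.6 CPM (632 UMIs) and 9.05 CPM (364 UMIs), 2.27-fold lower (2.0 to 2.59). Both have near-identical copies in the mouse genome, so the counts of each gene are uncertain. Ccl21a lay in region 3 of Blank, at 442 CPM with 66.2% of its UMIs, and in Col_nHA ranged from 167 CPM in region 7 to 0.451 CPM in region 14. Region 6 held 36.2% of its Col_nHA UMIs, at 138 CPM, and within that region the direction was the opposite one, with 16 Blank and 733 Col_nHA UMIs and a ratio of 9.63 (5.89 to 16.9). Ccl27a lay in region 4 of Blank, led by Defb8, Krt77 and Lor, at 80.5 CPM with 50% of its UMIs, and in region 11 of Col_nHA, at 32.9 CPM with 22.0%. These 2 regions had the highest skin list shares, 1.54% of UMIs in region 4 of Blank and 2.24% in region 11 of Col_nHA. The lymphatic list summed to 210.3 CPM in Blank and 220.4 in Col_nHA, whereas its median log2 ratio was -0.67, with 2 of its 4 genes at 10 CPM at least 2-fold lower, and its part in the Ccl21a ratio was not tested. In the trimmed sections the ratio of Ccl21a was 0.657 (0.615 to 0.702) and that of Ccl27a 0.525, so neither was past 2-fold there. Ccl19, the other Ccr7 ligand, had 80 and 46 UMIs, a ratio of 0.439 (0.299 to 0.639), and Ccl20 had 22 and 7, a ratio of 0.243 (0.0877 to 0.589).

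Among the receptors, 8 reached 10 CPM, and 1 of these was past 2-fold. Ccr1, a receptor of macrophages, neutrophils and osteoclast precursors, stood at 19.3 CPM in Blank (593 UMIs) and 52.2 in Col_nHA (2099 UMIs), a ratio of 2.70 (2.47 to 2.97). Ccr2, the monocyte receptor of Ccl2, Ccl7 and Ccl12, stood at 54.5 and 48.8 CPM, a ratio of 0.896 (0.839 to 0.957), and at 1.06 in the trimmed sections. The ligand Ccl2 was thus higher in Col_nHA while its receptor Ccr2 was at about the same level. Ccr7, which guides dendritic cells and T cells to lymph nodes, stood at 7.36 and 10.4 CPM, a ratio of 1.41 (1.20 to 1.67). Over whole sections that was the opposite direction to its ligands Ccl21a and Ccl19. Within region 6 the Ccr7 ratio was 0.449 (0.265 to 0.782), where that of Ccl21a was 9.63, and in region 2 Ccr7 stood at 0.884 (0.607 to 1.30). Cxcr4, the receptor of Cxcl12, stood at 29.5 and 40.4 CPM, a ratio of 1.37 (1.26 to 1.48). Cx3cr1, the receptor of Cx3cl1, stood at 20.5 and 18.7 CPM, a ratio of 0.913 (0.820 to 1.02).

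Ccr1 was spread over several regions of Col_nHA, highest in region 14 with 93.9 CPM, then in region 8 with 82.0 CPM, led by Mmp9 and Acp5, which held 27.2% of its UMIs. Region 8 also had the highest osteoclast list share of Col_nHA, 0.878% of UMIs. In Blank Ccr1 was highest in region 6 at 66.3 CPM, and within region 6 its ratio was 1.02, against 2.09 in region 2. The osteoclast list was 1641 CPM in Blank and 3083 in Col_nHA, and its part in the Ccr1 ratio was not tested. Ccr3, the eosinophil receptor that lies next to Ccr1, was below 10 CPM with 31 and 92 UMIs, a ratio of 2.27 (1.49 to 3.52), and 55.4% of its Col_nHA UMIs also lay in region 8. Ccr2 was highest in region 14 of Col_nHA, at 180 CPM, and in region 3 of Blank, at 117 CPM. Ccr7 was highest in region 6 of Blank and region 14 of Col_nHA, at 19.7 and 16.7 CPM, and Cx3cr1 in region 2 of both sections, at 43.4 and 46.5 CPM. Cxcr4 was highest in region 6 of both sections, at 97.6 CPM in Blank and 79.4 in Col_nHA.

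The neutrophil receptors were low. Cxcr2 had 66 UMIs in Blank and 160 in Col_nHA, a ratio of 1.85 (1.38 to 2.51), and Cxcr1 had 1 and 20, a ratio of 15.3 (2.44 to 633). The neutrophil list stood at 241 and 325 CPM, a ratio of 1.35, with its genes split. S100a8 and S100a9, which monocytes also express, had ratios of 1.70 and 1.19, and the granulocyte growth factor receptor gene Csf3r 1.29. Retnlg and the granule genes Ngp, Ltf and Camp, all below 10 CPM, had ratios of 0.216, 0.488, 0.691 and 0.725, with intervals below 1. The list had its highest share in Col_nHA in region 11, 0.154% of UMIs, and in Blank in region 13, 0.147%. Cxcr2 was highest in region 11 of Col_nHA, at 10.3 CPM, and in region 6 of Blank, at 10.7 CPM, which are the regions where Cxcl2 and Cxcl3 were highest. In region 13 of Blank it had 0 UMIs. Xcr1, the receptor of cross-presenting dendritic cells, had 53 and 15 UMIs, a ratio of 0.216 (0.113 to 0.389), while its ligand Xcl1 had 70 and 71. The dendritic cell list summed to 31.8 CPM in Blank and 19.1 in Col_nHA. Only 1 of its 7 genes reached 10 CPM, with a log2 ratio of -2.24, so the sum is not read as a direction of the list. The list's part in the Xcr1 ratio was not tested. Cxcr5 had 0 UMIs in Blank and 7 in Col_nHA. Set against a floor of 3 counts in Blank, the 7 stand 1.78-fold higher, a value without the counting error of the 7. Ccr8 had no UMI in either section.

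Over whole sections the 4 atypical receptors were all lower in Col_nHA, at 78.6 CPM summed in Blank and 55.5 in Col_nHA. Ackr3, which takes up Cxcl12, stood at 55.7 and 44.6 CPM, a ratio of 0.802 (0.75 to 0.857). Ackr1, the receptor of venules and red cells, stood at 12.0 and 7.81 CPM, a ratio of 0.650 (0.557 to 0.758). Ackr4, which takes up the ligands of Ccr7, had 242 and 66 UMIs, a ratio of 0.208 (0.156 to 0.275), and Ackr2, which takes up inflammatory CC ligands, had 92 and 58, a ratio of 0.482 (0.341 to 0.676). Every atypical receptor had an interval below 1, as had 3042 of all 9855 genes at 10 CPM, a level that Ackr2 and Ackr4 did not reach. The CC receptors summed to 119 CPM in Blank and 166 in Col_nHA. They did not share a direction, with Ccr1 at 19.3 and 52.2 CPM and Ccr2 at 54.5 and 48.8 CPM. Ackr4 was highest in region 4 of Blank, at 23.9 CPM, and in region 13 of Blank, at 22.3 CPM. Region 13 is led by Bglap and Ibsp, genes of bone matrix. Ackr3 was highest in region 10 of Blank and region 7 of Col_nHA, at 99.1 and 120.2 CPM. Ackr1 was highest in region 3 of Blank and region 7 of Col_nHA, at 28.6 and 20.6 CPM, and its ratio was 0.824 in the trimmed sections. In region 2 the direction was not kept by Ackr1, with a ratio of 3.55 (1.86 to 7.43) from 11 and 68 UMIs. Ackr3 stood at 0.991 (0.803 to 1.23) there. Ackr4 kept the direction, at 0.196 (0.0959 to 0.377) from 38 and 13 UMIs, and Ackr2, at 0.573, had only 4 UMIs in each section.

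Of the 38 IDs below 10 CPM, 27 had UMIs, with 9.20 CPM as the highest level. The interval of the ratio lay above 1 for 8 of these and below 1 for 7. No such count was made over all genes below 10 CPM, so these counts are not read as a trait of the members. A further 11 IDs had no UMI in either section, and 8 of those 11 belong to symbols that occur in several rows of the gene table. These include Ccl21b and Ccl21c, copies of Ccl21a, so their zeros say nothing about those genes.

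Many members lie in gene clusters, and neighbours did not always share a direction. Positions are from RefSeq on GRCm38.p6. On chromosome 11, between 82035577 and 82179812, Ccl2 and Ccl7 had ratios of 2.68 and 1.66, Ccl11, next to them, 0.590, Ccl12 1.2 and Ccl8 0.758. The second cluster of the chromosome, between 83525778 and 83664683, was of 1 direction, with Ccl5, Ccl9, Ccl6, Ccl3 and Ccl4 all between 1.39 and 2.08. On chromosome 5, between 90759298 and 90905938, Cxcl5 and Ppbp stood at 3.12 and 2.76, and Pf4, Cxcl3, Cxcl1 and Cxcl2 between 1.24 and 1.70. Cxcl9 and Cxcl10, also on chromosome 5 between 92321331 and 92348889, had ratios of 0.859 and 1.58. On chromosome 9, between 123767211 and 124109140, Ccr1 and Ccr3 stood at 2.70 and 2.27, Ccr2, next to Ccr3, at 0.896 and Xcr1 at 0.216.

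**Figure D3:**
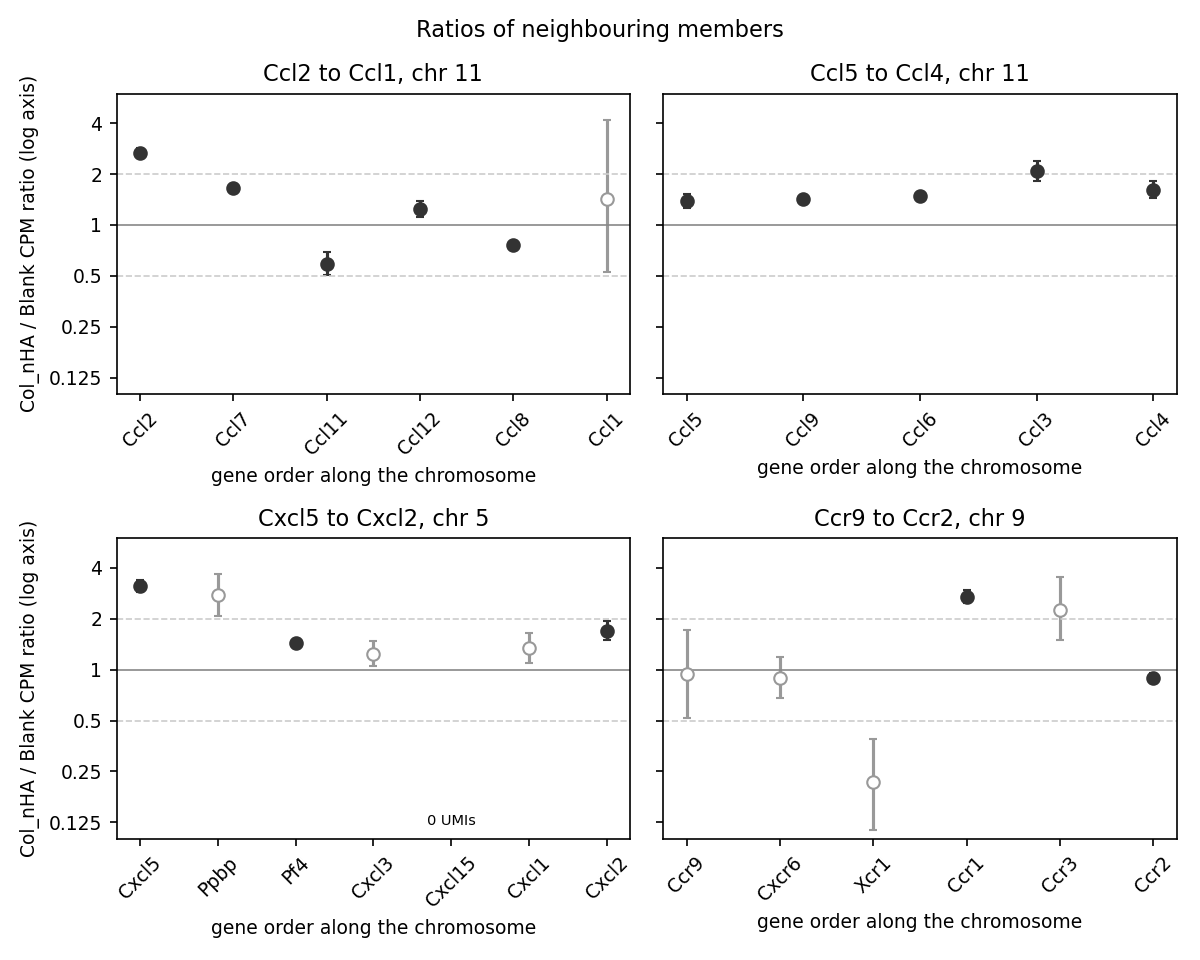
Ratio of Col_nHA over Blank for the members of the gene clusters, in chromosome order and on a log axis, with exact 95% counting intervals. All points of the Ccl5 to Ccl4 cluster lie above 1, while the Ccl2 to Ccl1 cluster and the receptor cluster have members on both sides of 1.

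Since the macrophage list differed between the sections, spots of both were ranked by the share of their UMIs in that list and split at equal shares of the spots into 5 bins. The Ccl2 ratio was above 1 in each bin, at 1.80, 2.5, 1.94, 2.67 and 3.24 from the lowest to the highest. Ccr1 was above 1 in each too, at 1.87, 2.20, 2.99, 3.0 and 2.62. The bins did not make the list equal, as its share of UMIs was 0.219% in Blank and 0.168% in Col_nHA in the lowest bin and 1.27% and 1.66% in the top bin, and its part in these ratios was not tested. Cxcl5 behaved otherwise, as its ratio went from 8.51 in the lowest bin through 5.30, 3.63 and 2.71 to 1.08 (0.926 to 1.26) in the highest. Cxcl2 went from 2.39 and 11.1 in the 2 lowest bins to 0.345 in the highest. Ccl21a was lower in Col_nHA in the 4 lower bins, between 0.131 and 0.530, and higher in the top bin, at 1.51. The Ccl2 ratio was thus above 1 in low and high bins, and that of Cxcl5 was near 1 in the top bin alone.

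**Figure D4:**
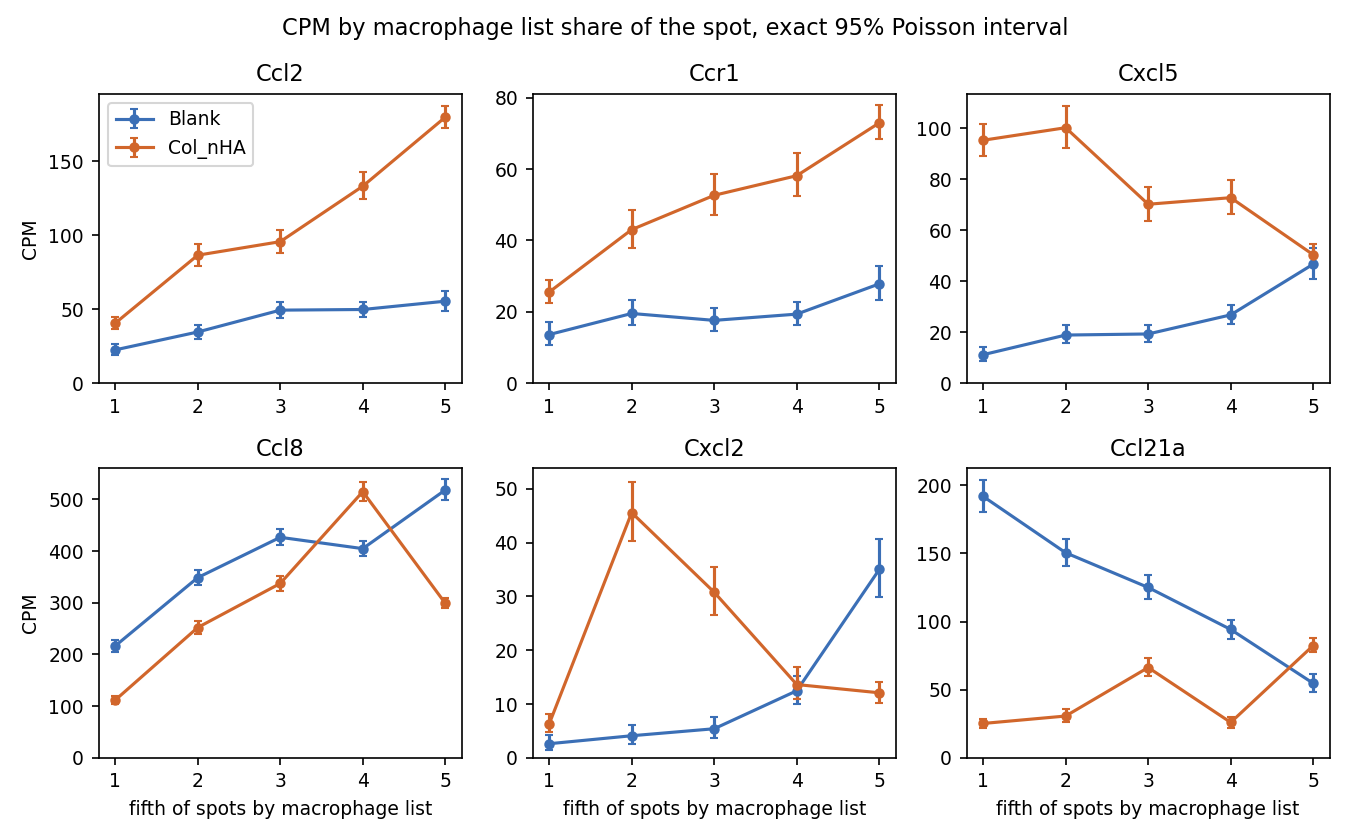
CPM of Ccl2, Ccr1, Cxcl5, Ccl8, Cxcl2 and Ccl21a in Blank and Col_nHA spots, in 5 bins from the lowest (1) to the highest (5) share of UMIs in the macrophage and monocyte list, with exact 95% Poisson intervals. Col_nHA lies above Blank in every bin for Ccl2 and Ccr1, and the lines of Cxcl5 meet in the top bin.

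**Figure D5:**
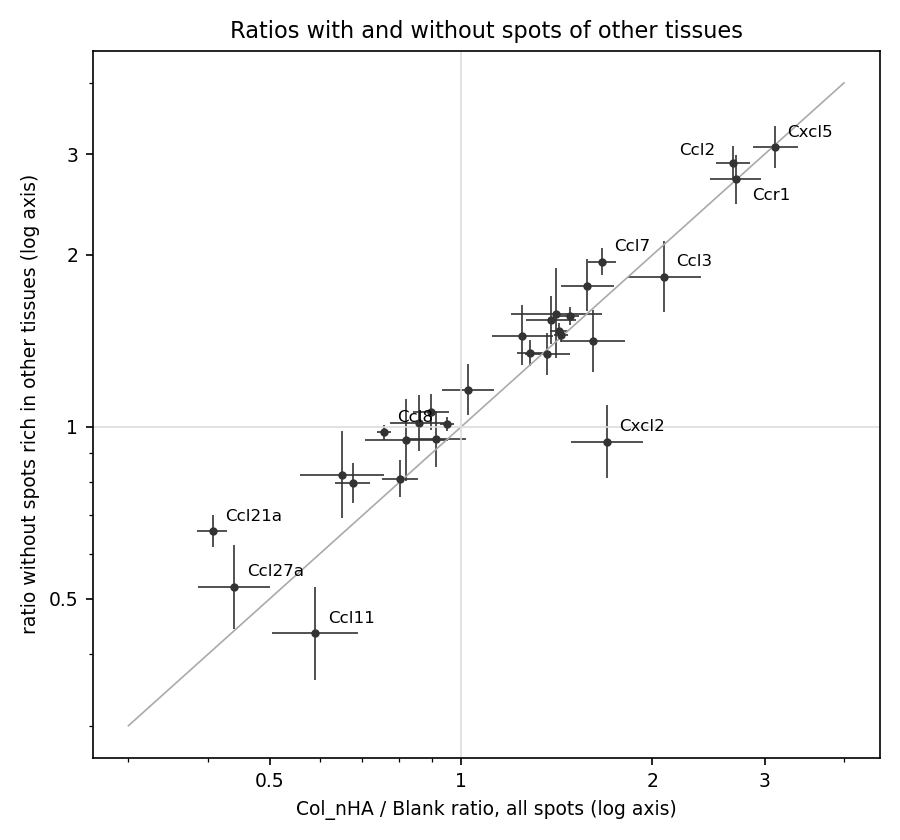
Ratio of Col_nHA over Blank for 29 of the 30 members, with all spots on the x axis and in the trimmed sections of 1637 Blank and 2130 Col_nHA spots on the y axis, both log axes, with exact 95% counting intervals and a line where both are equal. Ccl2, Cxcl5 and Ccr1 are above 2 on both axes, and Cxcl2 lies below the line at 1.70 and 0.942.

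Ligands and receptors were set side by side over the regions with at least 50 spots, 8 in Blank and 9 in Col_nHA, for 29 pairs. Spearman's rank correlation between Ccl2 and Ccr2 was 0.857 in Blank and 0.783 in Col_nHA, between Ccl9 and Ccr1 0.929 and 0.817, and between Cxcl5 and Cxcr2 0.905 and 0.800. It was weaker between Cxcl12 and Cxcr4, at 0.262 and 0.617, and near 0 between Ccl21a and Ccr7, at 0.0714 and -0.183. These are descriptions with no test, since the points of a section share its library and their depth. Not every inflammatory pair ranked the regions alike. The rank correlation was 0.738 and 0.167 between Cxcl9 and Cxcr3, -0.762 and -0.217 between Ccl11 and Ccr3, and -0.429 and -0.15 between Ccl24 and Ccr3.

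A UMI in a spot need not mean that the gene was expressed there. With every spot thinned to 2000 UMIs, 8.27% of Blank and 19.5% of Col_nHA spots held a Ccl2 UMI, and without thinning 30.2% and 56.6% did. Barcodes below the tissue threshold held the gene as well, with 39.9 CPM in Blank and 136 CPM in Col_nHA. Thinned to 500 UMIs, 1.64% of such barcodes in Blank and 5.70% in Col_nHA had a Ccl2 UMI, against 2.22% and 5.46% of spots. For Ccl21a spots and other barcodes parted, with 5.51% against 2.15% in Blank and 1.82% against 0.685% in Col_nHA. The share of spots with a Ccl2 UMI is thus not above that of barcodes outside the tissue call in Col_nHA, and it is read as no measure of expressing spots. The Ccl2 ratio over every barcode is among the alternatives of the closing section.

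Few of the genes around the chemokine system were past 2-fold, as was so for all genes at 10 CPM, with 1.83% higher and 3.4% lower. Of 30 genes of chemokine receptor signalling, 28 reached 10 CPM, 1 was at least 2-fold higher and none was 2-fold lower, with a median log2 ratio of 0.16. That gene was Rgs1, which limits G protein signalling downstream of chemokine receptors, at 5.44 CPM in Blank and 19.6 in Col_nHA, a ratio of 3.60 (3.04 to 4.28). The Src-family kinase gene Fgr stood at 15.8 and 22.8 CPM, a ratio of 1.44. The small GTPase genes Cdc42 and Rac1, which drive the cytoskeleton of moving cells, had ratios of 1.03 and 1.10. Of 16 genes of chemokine-inducing cytokines and NF-kappaB, 9 reached 10 CPM and none was past 2-fold in either direction, with a median of 0.12. In that list Il1b, a cytokine that induces Cxcl1, Cxcl2 and Ccl2, stood at 23.0 and 39.6 CPM, a ratio of 1.72 (1.58 to 1.89), Tnfaip3, an NF-kappaB inhibitor, at 1.46 and Csf1, the macrophage growth factor, at 1.36, while Nfkbia stood at 1.01.

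Of 17 genes of chemokine presentation and processing, 14 reached 10 CPM, with 1 at least 2-fold higher, 1 at least 2-fold lower and a median log2 ratio of 0.06. Mmp9, a gelatinase that trims ELR ligands, stood at 246 CPM in Blank and 639 in Col_nHA, a ratio of 2.60. Dpp4, which encodes the peptidase CD26 that shortens Cxcl12 and other ligands, stood at 20.8 and 6.02 CPM, a ratio of 0.289 (0.248 to 0.336). Mmp2 was at 0.734 and the osteoclast protease gene Ctsk at 1.45. Thus the matrix protease genes of this list did not share a direction. The 3 lists had 1 of 28, 0 of 9 and 1 of 14 genes past 2-fold higher, where the chemokine set had 4 of 30 and all genes 1.83%. In lists this short, 1 gene more or less is not read as a difference from that share. Lists and members were described by counts alone, without a test of the lists against each other.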

How the data were processed

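RNA was counted in 2 libraries, 1 per group, from frozen sections of mouse calvarial bone. The deposited matrices hold raw UMI counts of 31053 genes for each barcode of the array, with no tissue filter. The authors used Space Ranger with build mm10, per the submitters' processing notes, and the file headers name Cell Ranger 4. The labels' extraction text describes a single-cell kit, whereas the sample description, the tool and the barcode number are those of spatial arrays. Whether strand was used in counting is not stated there.

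Spots were barcodes at or above a UMI total set for each section. Their UMIs, 30705849 for Blank against 40202268 for Col_nHA, were added up by gene and scaled to CPM. Ratios have exact conditional binomial 95% intervals, levels Poisson and shares of spots Clopper-Pearson intervals, for counting error only. A member was called at 2-fold with at least 10 CPM in Blank, Col_nHA or both. A gene below that was named with 20 or more UMIs in a section and an interval leaving out 1, or as the receptor of a named ligand. Pathway lists gave their 2 most abundant genes and the 2 whose ratio was furthest from 1. Members and lists were chosen with earlier results of these data known. Trimmed sections lack spots in which lists of other tissues took over 2% of UMIs.

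Regions came from Leiden clustering (resolution 0.6, 15 neighbours, 30 principal components of 2000 variable genes, scaling to 10000 counts) without batch integration. Of the 68 member IDs, 61 matched the name table and 58 had a position. Protein sequences were not used here, and 1 member above 10 CPM, which stays in all counts and sums, is not reported here by name. Tools were Python 3.11.15, scipy 1.17.1, pandas 2.3.3, scanpy 1.11.5 and R 4.3.3 with edgeR 4.0.16 for TMM factors alone. Calculations were tested on simulated data. Alternatives were other UMI thresholds, scalings, CPM minimums, folds and resolutions, the mean of per-spot CPM, and trimmed sections.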

Additional observations from a re-analysis of the deposited data

Results flagged for a closer look

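Several members had opposite ratios of Col_nHA over Blank in 2 of the regions that both sections share, each at least 1.5-fold with a counting interval that left out 1. The difference itself was not tested, and region 6 rests on 52 Blank spots. Ccl3 had a ratio of 1.94 in region 2 and 0.572 in region 6. Ccl9 had a ratio of 1.87 in region 13, the bone matrix region, and 0.633 in region 6. Cxcl10 stood at 3.57 in region 2 and at 6.19 in region 13, the latter from 2 Blank and 13 Col_nHA UMIs, against 0.461 in region 6. Cxcl9 stood at 4.0 in region 13, from 5 and 21 UMIs, against 0.364 in region 6. Cxcl5 stood at 17.1 in region 13, from 1 and 18 UMIs, against 0.211 in region 6. In every one of these pairs the member was higher in Blank in region 6, where Ccl2 by contrast was higher in Col_nHA, at 3.07.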

How the results depend on the processing

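No paired analysis was possible because each group holds 1 library, and for the same reason no replicate could be left out. The counts of 4 members higher and 2 lower, and a positive median log2 ratio, were the same with UMI thresholds lowered or raised by 25%, the Col_nHA threshold in both sections, every barcode, TMM and median-of-ratios. In the trimmed sections 3 of 29 members were 2-fold higher, against 1.49% of all genes. There 1 member was 2-fold lower, which was Ccl11, against 2.36% of all genes. At a minimum of 1 CPM 6 of 46 were higher and 6 lower, against 2.83% and 8.02% of all genes, and at 50 CPM 3 of 15 and 1, against 2.09% and 2.79%. With no CPM minimum 7 of 56 were higher and 10 lower, against 4.85% and 11.9%, and the median log2 ratio was -0.0834, the opposite sign, against -0.0477 for all genes. At 1.5-fold, 8 of 30 were higher and 4 lower, against 5.13% and 7.07% of all genes. As a mean of per-spot CPM, 6 of 32 were higher and 2 lower, against 2.06% and 4.34% of all genes. In the trimmed sections the ratios of Cxcl2, Cxcl9, Cxcl12 and Ccr2 lay on the other side of 1, at 0.942, 1.02, 1.01 and 1.06. Of 270 ratios of the 30 members over 9 alternatives, 232 moved by less than their interval, 34 moved further and 4 crossed 1. Over these the Ccl2 ratio ranged from 2.68 to 2.90, Cxcl5 from 3.09 to 3.42, Ccr1 from 2.68 to 2.99 and Cxcl2 from 0.942 to 2.97. The share of member UMIs in the highest region depends on how finely spots are clustered. In Blank it was 11.3% at resolution 1.0. In Col_nHA it was 18.2% at resolution 0.3, 11.5% at 1.0 and 12.4% with member genes kept in the clustering. The cause of these changes was not tested. Counts under about 20 UMIs, such as those of Cxcr1 and Cxcr5, leave ratios wide.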
